A study of Mus musculus with 6 samples.

Results

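Mouse ESCs were compared with EpiLCs in which PRDM14 was to be expressed, to find what still separated the transcriptomes of these cells. The members of the comparison were all non-control probe sets of the array that carry 1 gene symbol, 28898 of 45037, and they stand for 17097 genes. They came from 2 of the 6 arrays of the series, 1 array for ESCs and 1 for EpiLCs + PRDM14. All cells were derived from E14tg2a, a feeder-independent mouse ESC line, and carried a *Prdm14* cassette placed by the piggyBac transposon and switched on by doxycycline. ESCs were undifferentiated cells, and their label gives no shRNA. EpiLCs (d2) had a scramble shRNA and had been kept with activin A and bFGF for 2 days, which turns ESCs into cells like the early postimplantation epiblast. EpiLCs (d4) had the same shRNA and were kept on without PRDM14. EpiLCs + PRDM14 had the scramble shRNA and, by the design, PRDM14 from doxycycline after the EpiLC step, but their label names no day. The remaining arrays, a pair of EpiLC cultures without and with PRDM14 whose labels give a *Tet1*/*Tet2* KD, were used only where they are named.

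PRDM14 is a PR-domain zinc finger protein of ESCs and primordial germ cells that is known to act together with Polycomb group proteins and CBFA2T2. Naive ESCs rest on a circuit of transcription factors that LIF, through STAT3, and inhibition of MEK and GSK3 keep active. During the step to EpiLCs this circuit is weakened, the de novo methyltransferases rise, and genes of the postimplantation epiblast such as *Pou3f1* and *Fgf5* come on.

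Each condition had 1 array, so differences had no replicate check and no p-values were computed, and precision is limited by that number. The deposited values were log2 RMA signals, a difference is a log2 difference, and a gene was represented by its brightest probe set over the 6 arrays. A gene was called higher or lower when a pair of arrays differed by 1.5-fold or more, or 0.585 on the log2 scale. ESCs and EpiLCs + PRDM14 also differed in medium, substrate, shRNA, doxycycline and passage through the EpiLC step, and these cannot be told apart from PRDM14. The labels give serum with LIF for ESCs, the study's methods also describe medium with MEK and GSK3 inhibitors and LIF, and EpiLCs + PRDM14 were plated in a serum replacement medium for which no LIF is named. That medium was shared by EpiLCs (d4), whose level is given for the genes described in full. In the values below, d2 and d4 stand for the EpiLC arrays without PRDM14, the words with PRDM14 for EpiLCs + PRDM14, and a run of 4 values keeps the order ESCs, d2, d4, with PRDM14.

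The labelled cell types were set against their markers. ESCs held *Nanog* at 10.32, *Zfp42* at 12.19 and *Klf4* at 9.21, and EpiLCs (d2) held *Pou3f1* at 9.01 and *Fgf5* at 6.30, where ESCs had 4.91 and 5.38. All 6 markers of fibroblasts or feeder cells lay within 1.5-fold between ESCs and EpiLCs + PRDM14 and at or below 5.91 in both, and so did every measured marker of trophoblast, primitive endoderm and mesoderm, at or below 6.30. Among 4 neural ectoderm markers, *Neurod1* was lower in ESCs, at 5.74 against 6.47. The probe set of *Prdm14* itself read 6.96 in ESCs, 5.04 on d2, 5.18 on d4 and 4.95 with PRDM14. It was thus not raised on the array labelled + PRDM14, and whether the transcript of the cassette holds the sequence of these probes was not examined.

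Most genes lay close to each other in both cells. The median difference, ESCs minus EpiLCs + PRDM14, was 0.01, and 16218 genes (94.9%) lay within 1.5-fold. Of all genes, 388 (2.27%) were higher in ESCs and 491 (2.87%) were lower. Past 2-fold there were 132 (0.772%) and 183 (1.07%), and past 4-fold 23 and 34. Counted by probe set, 547 (1.89%) were higher in ESCs and 730 (2.53%) lower. At the 1.5-fold limit, *Nedd4l* with a difference of 0.59 was just inside and *Ppp1r14d* with 0.58 just outside on the higher side, and *Txlng* with -0.59 and *Fundc2* with -0.58 stood on either side of the lower limit. A further 156 probe sets without a symbol were higher in ESCs and 181 were lower, and these were not analysed by gene.

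**Figure D1:**
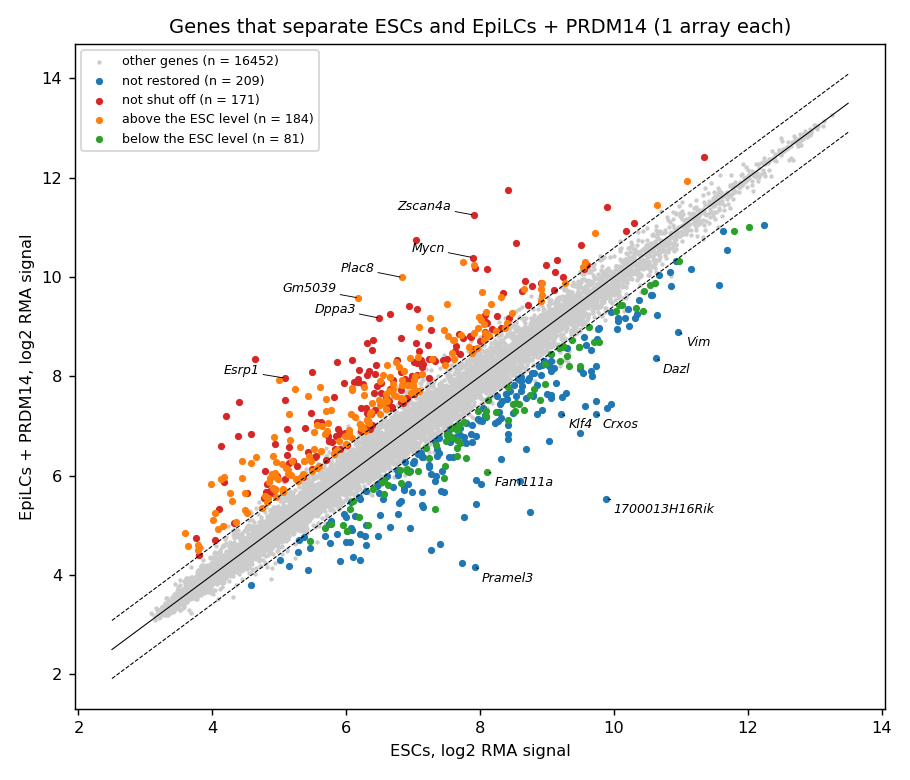
Log2 RMA signal of each gene in ESCs (horizontal axis) and in EpiLCs + PRDM14 (vertical axis), 1 array each. The solid line marks equal levels and the dashed lines 1.5-fold, colours mark the 4 classes of genes described in the text, and the grey points outside the dashed lines are genes in none of these classes. *1700013H16Rik* and *Pramel3* lie farthest below the line, and *Gm5039* and *Zscan4a* are among those farthest above it.

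EpiLCs (d2) were used to sort these genes by what ESCs and EpiLCs held before PRDM14. Of 461 genes that ESCs held above EpiLCs (d2), 241 (52.3%) came within 1.5-fold of ESCs in EpiLCs + PRDM14, 209 (45.3%) were still lower than in ESCs and 11 (2.39%) were past the ESC level. Of the 397 genes that were lower in ESCs than in EpiLCs (d2), 220 (55.4%) were within, 171 (43.1%) were still higher than in ESCs and 6 (1.51%) were below. The 209 genes are called not restored (1.22% of all genes) and the 171 not shut off (1%). Outside these classes, EpiLCs + PRDM14 went past the level of both ESCs and EpiLCs (d2) upward in 184 genes (1.08%), called above the ESC level. They did so downward in 81 genes (0.474%), called below it. A further 27 genes not shut off were also higher than in EpiLCs (d2), and 17 genes not restored were also lower. These stayed in the classes named first. The remaining 98 higher (0.573%) and 136 lower genes (0.795%) were in none of these classes. Because the classes share the arrays of ESCs, EpiLCs (d2) and EpiLCs + PRDM14, their sizes are a description of 3 arrays.

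**Figure D2:**
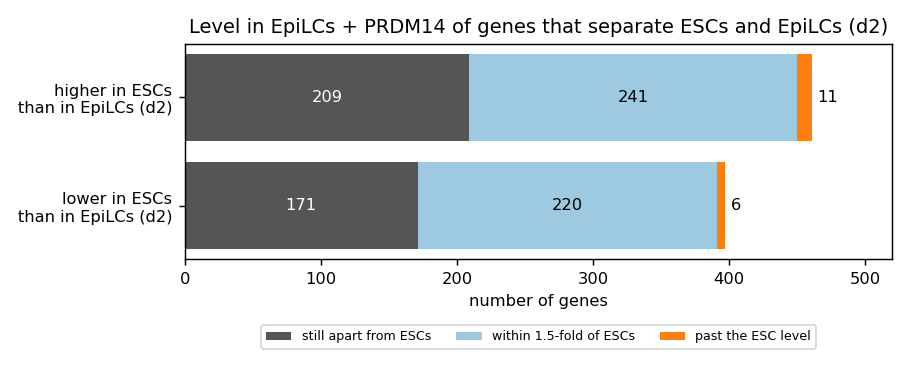
Number of genes (horizontal axis) past 1.5-fold between ESCs and EpiLCs (d2), by where their level lay in EpiLCs + PRDM14. Of 461 genes higher in ESCs, 209 were still apart, 241 were within 1.5-fold and 11 were past the ESC level, and of 397 lower genes these were 171, 220 and 6.

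Genes that were not restored had a median level of 7.98 in ESCs, 6.71 on d2, 6.60 on d4 and 6.84 with PRDM14. Against EpiLCs (d2), EpiLCs + PRDM14 held 36 of the 209 genes higher, 156 within 1.5-fold and 17 lower. Most of the class thus had about the level of EpiLCs without PRDM14, a smaller group stood between the levels of EpiLCs and ESCs, and the smallest moved away from ESCs. With EpiLCs (d4) as the EpiLC level, the class held 276 genes.

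The naive pluripotency network was split. Of 28 measured genes of a list of 30, 9 were higher in ESCs (32.1%, against 2.27% of all genes) and 3 were lower. The 9 include *Prdm14* itself, whose probe set was not raised on the array labelled + PRDM14. The median difference of the list was 0.25. *Klf4*, a Krüppel-like factor downstream of LIF and STAT3, was at 9.21 in ESCs, 5.25 on d2, 5.25 on d4 and 7.25 with PRDM14. *Tfcp2l1*, a CP2 family transcription factor of the same branch, was at 9.07, 6.46, 6.56 and 7.57 in these arrays, and *Tbx3*, a T-box factor, at 9.14, 7.12, 7.40 and 7.86. These 3 factors were higher with PRDM14 than in EpiLCs (d2), and *Klf4* and *Tfcp2l1* but not *Tbx3* also by more than 1.5-fold than in EpiLCs (d4), and all stayed 1.28 to 1.96 below ESCs. *Crxos*, a homeobox gene, had 9.73 in ESCs and 6.44, 6.22 and 7.24 in EpiLCs (d2), EpiLCs (d4) and EpiLCs + PRDM14. *Lrrc34*, a leucine-rich repeat gene, stood at 7.14, 4.64, 4.82 and 5.38 in the same order. *Manba*, which encodes the lysosomal enzyme beta-mannosidase, was 9.73, 8.63, 7.20 and 7.50, so that it was lower with PRDM14 than in EpiLCs (d2) but not than in EpiLCs (d4). The members closest to ESCs in this group were *Eras*, a constitutively active Ras protein of ESCs, 0.85 lower in EpiLCs + PRDM14, and *Jam2*, a junctional adhesion molecule, 0.76 lower.

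Other members of the same list reached the ESC level. *Nanog*, a central homeobox factor of pluripotency, was at 10.32 in ESCs, 7.91 on d2, 8.43 on d4 and 10.25 with PRDM14. *Zfp42*, also known as *Rex1*, was at 12.19, 10.78, 10.95 and 12.08, and *Nr0b1*, an orphan nuclear receptor, at 8.07, 6.34, 6.28 and 8.24. *Tcl1*, a coactivator of the AKT kinase, was at 8.30, 5.88, 5.80 and 8.48. In these 4 genes EpiLCs + PRDM14 differed from ESCs by at most 0.18. *Nr5a2* and *Esrrb*, both orphan nuclear receptors, were 0.25 and 0.42 lower than in ESCs, which is within 1.5-fold. *Klf2*, another Krüppel-like factor, went past the ESC level, with 8.92 in ESCs, 8.33 on d2, 8.52 on d4 and 9.63 with PRDM14. *Klf4* and *Klf2* therefore stood on opposite sides of ESCs.

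Genes of the LIF-STAT3 pathway were among those not restored. Of 24 measured genes of a list of 25, 7 were higher in ESCs (29.2%, against 2.27% of all genes), 6 of them in the class not restored, and 2 were lower. Other lists also hold 11 of the 24, and *Klf4* and *Tfcp2l1* were already counted in the naive list, so the lists are not separate. The list had a median of 0.24. *Lifr*, the LIF receptor subunit, had 8.95 in ESCs, 7.66 on d2, 6.67 on d4 and 8.32 with PRDM14. *Socs3*, the feedback inhibitor of the pathway, had 5.97, 5.38, 5.30 and 5.23, and *Bcl3*, a nuclear IkB family protein, 6.21, 4.70, 4.81 and 4.82. *Lifr* therefore stood nearer to ESCs than to EpiLCs (d4), while *Socs3* and *Bcl3* lay at the level of both EpiLC arrays. *Socs3* only just entered the class, since ESCs were 0.586 above EpiLCs (d2), and it was under 6 in each array. *Sgk1*, a serum and glucocorticoid regulated kinase, was at 10.32 in ESCs, 9.37 on d2, 8.70 on d4 and 9.17 with PRDM14. The receptor partner *Il6st* and *Stat3* itself were within 1.5-fold, at -0.22 and 0.43. The listed genes that were lower in ESCs were the homeobox gene *Gbx2* and *Gadd45g*, a growth arrest and damage gene, which was at 4.39, 7.27, 7.56 and 6.79. LIF is named for both ESC media and not for that of EpiLCs + PRDM14, and the part of this difference in the result was not tested.

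Some late germ cell genes also stayed apart. Of 38 measured genes of a list of 45 for late germ cells, meiosis and the piRNA pathway, 8 were higher in ESCs (21.1%, against 2.27%), 5 of them in the class not restored, 1, *Tex15*, was lower (2.63%, against 2.87%) and 29 were within 1.5-fold, with a median difference of 0.15. *Dazl*, an RNA-binding protein that licenses germ cells for gametogenesis, was at 10.63 in ESCs, 8.12 on d2, 6.85 on d4 and 8.36 with PRDM14. *Stk31*, a Tudor domain kinase of the testis, was at 7.76, 5.87, 4.80 and 5.17, and *Rnf17*, a Tudor domain protein of spermatids, at 7.94, 7.33, 6.39 and 6.80. Of these 3 genes *Dazl* was higher with PRDM14 than in EpiLCs (d4) by more than 1.5-fold, and *Stk31* was lower than in EpiLCs (d2). *Magea5*, of the melanoma antigen family on the X chromosome, was at 7.27, 4.90, 4.68 and 4.50. The smaller differences of the germline genes *Gtsf1*, *Stag3*, *Hormad1* and *Syce1*, named here after their values were seen, were 0.83, 0.72, 0.70 and 0.68.

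Promoters of 4 of these genes and of *Socs3* are shown because the germline genes that were higher in ESCs do not share their base composition. Each window holds 300 bases across a start of transcription in the RefSeq annotation of GRCm38.p6, most of them before it, and of the 8 germline genes 7 could be matched. *Dazl* lies on the minus strand at chr17:50293571-50293870, *Stk31* on the plus strand at chr6:49395289-49395588, *Hormad1* on the plus strand at chr3:95559427-95559726, *Magea5* on the minus strand at chrX:155061504-155061803 and *Socs3* on the minus strand at chr11:117969317-117969616. Capitals mark CACGTG (an E-box, the letters bound by MGA and MAX among others), GCGGGAA (an E2F6-type site) and TTCNNNGAA (a STAT-type site), which were searched on both strands and do not overlap in these windows.
Dazl: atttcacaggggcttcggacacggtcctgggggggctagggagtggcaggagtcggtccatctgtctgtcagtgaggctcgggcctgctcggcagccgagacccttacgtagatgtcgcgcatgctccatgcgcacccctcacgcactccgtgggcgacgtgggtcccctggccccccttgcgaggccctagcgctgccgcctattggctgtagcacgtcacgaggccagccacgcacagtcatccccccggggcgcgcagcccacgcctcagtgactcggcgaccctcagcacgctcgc
Stk31: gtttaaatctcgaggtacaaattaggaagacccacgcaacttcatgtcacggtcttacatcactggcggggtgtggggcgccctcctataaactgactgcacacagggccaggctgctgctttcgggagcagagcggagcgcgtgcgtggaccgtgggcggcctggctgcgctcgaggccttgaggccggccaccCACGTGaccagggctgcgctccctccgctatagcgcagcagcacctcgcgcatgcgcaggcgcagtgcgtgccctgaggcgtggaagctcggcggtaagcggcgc
Hormad1: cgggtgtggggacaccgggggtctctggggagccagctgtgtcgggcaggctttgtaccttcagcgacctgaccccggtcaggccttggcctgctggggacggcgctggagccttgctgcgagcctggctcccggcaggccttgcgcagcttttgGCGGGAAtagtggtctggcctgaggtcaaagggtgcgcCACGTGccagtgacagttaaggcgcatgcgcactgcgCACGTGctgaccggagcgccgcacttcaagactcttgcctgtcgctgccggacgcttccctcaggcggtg
Magea5: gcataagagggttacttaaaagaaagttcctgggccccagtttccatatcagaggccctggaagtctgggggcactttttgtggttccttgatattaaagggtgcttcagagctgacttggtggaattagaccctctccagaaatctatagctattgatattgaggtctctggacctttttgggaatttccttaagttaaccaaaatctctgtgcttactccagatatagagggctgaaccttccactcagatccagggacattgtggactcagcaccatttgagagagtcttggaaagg
Socs3: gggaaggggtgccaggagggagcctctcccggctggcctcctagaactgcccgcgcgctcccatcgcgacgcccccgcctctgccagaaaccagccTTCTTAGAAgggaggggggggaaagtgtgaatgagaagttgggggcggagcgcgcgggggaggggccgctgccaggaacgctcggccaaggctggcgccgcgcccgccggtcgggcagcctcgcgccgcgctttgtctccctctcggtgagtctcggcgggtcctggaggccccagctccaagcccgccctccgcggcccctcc
The windows of *Dazl*, *Stk31* and *Hormad1* hold 28, 29 and 24 CpG dinucleotides, that of *Socs3* holds 31 and that of *Magea5* none, where the median over the measured genes was 16. The E-box letters occur at 1 place in the window of *Stk31* and at 2 places in that of *Hormad1*, which also holds the E2F6-type letters, and the windows of *Dazl* and *Magea5* hold none of the 3. Of the 7 matched germline genes higher in ESCs, 3 (42.9%) had an E-box, as had 10 of 26 (38.5%) other measured genes of the list and 10.2% of 13605 measured genes with a window. The E2F6-type letters were in 2 of 7 (28.6%), 6 of 26 (23.1%) and 7.85%. Over all 32851 windows of the annotation the E-box was in 7.15%, the E2F6-type site in 4.6% and the STAT-type site in 8.3%. The listed germline genes that did and did not differ thus had like shares of both motifs. Among the LIF-STAT3 genes not restored, 2 of 6 (33.3%) had the STAT-type letters, *Socs3* in its window and *Sgk1* in 1 of its several windows. Among the other members 2 of 15 (13.3%) had them, *Cish* and *Gfap*, as had 8.76% of measured genes with a window. The difference between these shares was not tested. A gene with several annotated starts was counted when any of its windows held the letters. These matches describe the letters of the windows and not binding.

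The genes with the largest differences of the class included X-linked genes and members of germline gene families. *1700013H16Rik*, an X-linked gene, had 9.89 in ESCs, 7.48 on d2, 6.18 on d4 and 5.54 with PRDM14, the largest difference of all genes at 4.35. *Pramel3*, of the PRAME family, had 7.92, 5.68, 4.19 and 4.16, and *Xlr4b*, of an X-linked lymphocyte regulated family, 9.90, 8.90, 7.55 and 7.37. *Fthl17e*, a ferritin heavy chain-like gene, had 8.59, 6.76, 5.83 and 5.88. In these 4 genes EpiLCs (d4) and EpiLCs + PRDM14 were both below EpiLCs (d2), so the distance from ESCs was larger after day 2 with and without PRDM14. *Ott*, an X-linked gene of ovary and testis, was at 7.41 in ESCs and between 4.37 and 4.98 in the 3 EpiLC arrays. Of the 206 genes of the class with a known chromosome, 17 (8.25%) were X-linked, against 3.52% of all genes, and the share was 8.77% among genes not shut off, 5.98% above and 6.17% below the ESC level, so it was not particular to this class. Families such as *Magea*, *Xlr*, *Pramel* and *Fthl17* have near-identical copies that these probe sets may not separate.

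**Figure D3:**
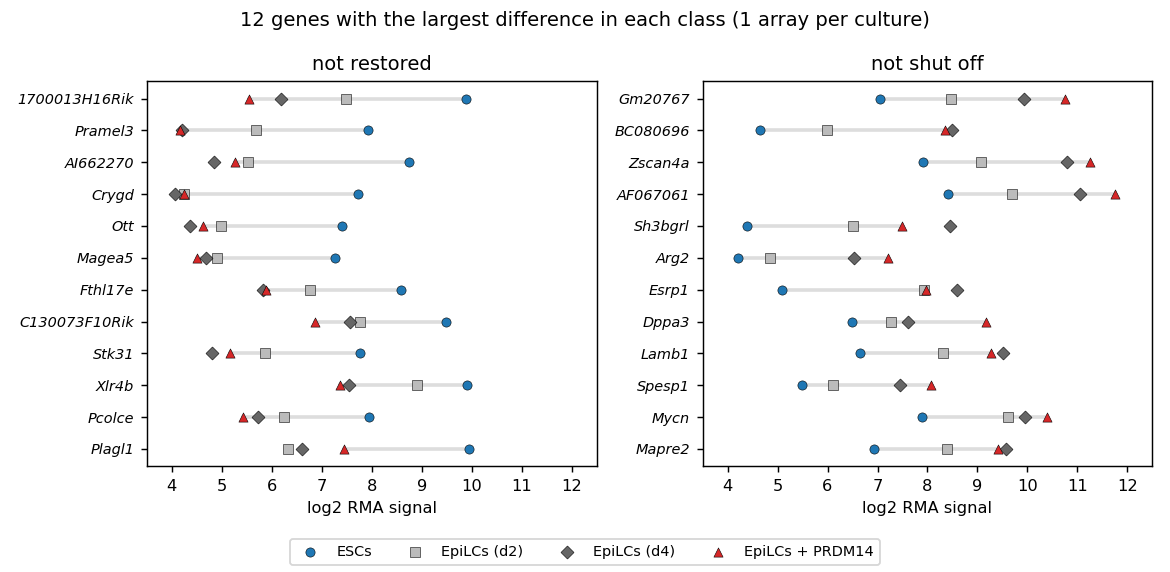
Log2 RMA signal (horizontal axis) of the 12 genes with the largest difference among genes not restored (left) and not shut off (right), 1 symbol per array. On the left, EpiLCs + PRDM14 stand with the EpiLC arrays and away from ESCs, and for *Plagl1* between them, and on the right they lie at or above EpiLCs (d2) in each gene.

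Several large differences concerned genes outside the germline. *Crygd*, a gamma-crystallin of the lens, was at 7.72 in ESCs and between 4.06 and 4.25 in the EpiLC arrays. *Plagl1*, an imprinted zinc finger gene, was at 9.95 in ESCs, 6.32 on d2, 6.60 on d4 and 7.44 with PRDM14. *Vim*, which encodes the intermediate filament vimentin, was at 10.96, 9.99, 8.82 and 8.89, and all 3 of its probe sets were higher in ESCs. *Plagl1* moved part of the way to ESCs, *Crygd* showed no such shift and *Vim* was lower with and without PRDM14 after day 2. *Pcolce*, an enhancer of procollagen processing, was at 7.94, 6.24, 5.73 and 5.43.

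Genes that were not shut off had a median level of 6.53 in ESCs, 7.67 on d2, 8.06 on d4 and 7.90 with PRDM14. Against EpiLCs (d2), EpiLCs + PRDM14 held 19 of the 171 genes lower, 125 within 1.5-fold and 27 higher. The 27 higher genes, *Mycn* and *Dppa3* among them, were past the level of both ESCs and EpiLCs (d2), so the name of the class does not describe their change. With EpiLCs (d4) as the EpiLC level the class held 316 genes.

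Genes of the primed epiblast were mostly near the ESC level. Of 29 measured genes of a list of 31, 7 were lower in ESCs (24.1%, against 2.87% of all genes) and 1, *Dnmt3b*, was higher, with a median of -0.21. The median level of the list was 6.37 in ESCs, 7.92 on d2, 7.74 on d4 and 6.62 with PRDM14, and 21 genes were within 1.5-fold of ESCs. Not all of these had differed before, since 17 of the 29 were lower in ESCs than in EpiLCs (d2), and of these 10 were within 1.5-fold of ESCs with PRDM14. *Pou3f1*, a POU factor that marks EpiLCs, was at 4.91 in ESCs, 9.01 on d2, 9.38 on d4 and 5.64 with PRDM14. *Fgf5*, a growth factor of the epiblast, was at 5.38, 6.30, 5.99 and 5.36, and *Otx2*, a homeobox factor that drives the primed state, at 6.53, 8.23, 7.13 and 6.80. *Pou3f1* was far below EpiLCs but kept a difference of 0.74 from ESCs, while *Fgf5* and *Otx2* were within 1.5-fold. The *Pou3f1* levels of ESCs and EpiLCs + PRDM14 were both under 6, and the other probe set of this gene differed by only -0.15. *Foxp1*, a forkhead factor, stood at 6.45, 8.29, 8.95 and 8.23, and 5 of its 7 probe sets were lower in ESCs. *Lefty1*, an inhibitor and target of Nodal, stood at 9.15, 11.13, 11.43 and 10.34, and *Skil*, an inhibitor of SMAD signalling, at 8.04, 10.06, 10.03 and 9.18. *Foxp1* had the level of EpiLCs (d2), and *Lefty1* and *Skil* lay about midway. Of 13 measured activin-nodal targets, these 2 were lower in ESCs (15.4%, against 2.87%) and 1, *Smad7*, was higher (7.69%, against 2.27%). The median of that list was 0.03, so it had no common direction.

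Single signalling genes of EpiLCs were still above ESCs. *Dusp4*, a phosphatase that ERK induces against itself, was at 4.17 in ESCs, 7.28 on d2, 7.03 on d4 and 5.87 with PRDM14. *Efnb2*, a transmembrane ephrin, was at 6.11, 8.70, 9.22 and 7.89. *Mycn*, a MYC family factor, was at 7.89, 9.61, 9.94 and 10.39. *Dusp4* and *Efnb2* lay below EpiLCs (d2), whereas *Mycn* was higher than in ESCs and EpiLCs (d2) and within 1.5-fold of EpiLCs (d4). Over the FGF-ERK list, 3 of 23 measured genes were higher in ESCs (13%, against 2.27%) and 3 were lower (13%, against 2.87%), with a median of 0.07, so the list had no common direction. None of 16 measured WNT targets was past 1.5-fold, with a median of -0.01. At the shares of all genes, a list of this size would hold few such genes.

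Single epithelial and basement membrane genes were also lower in ESCs. *Esrp1*, a splicing regulator of epithelial cells, was at 5.08 in ESCs, 7.94 on d2, 8.60 on d4 and 7.97 with PRDM14. *Lamb1*, a laminin beta chain of basement membranes, was at 6.65, 8.32, 9.52 and 9.26, and *Prom1*, a membrane glycoprotein, at 5.12, 7.76, 8.43 and 6.42. *Epcam*, an epithelial adhesion molecule, was at 8.44, 9.95, 10.09 and 9.18. Of 34 measured junction and epithelium genes, 7 were lower in ESCs (20.6%, against 2.87%) and 4 were higher (11.8%, against 2.27%), with a median of -0.12. Those higher included the desmoglein *Dsg2* at 1.63 and the gap junction gene *Gja1* at 1.08, so epithelial genes went in both directions. Of 36 measured matrix and integrin genes, 2 were lower in ESCs, *Lamb1* among them (5.56%, against 2.87%). A further 2 were higher (5.56%, against 2.27%), and the median was 0.05.

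Other genes lower in ESCs belonged to the imprinted, p53 and glycolysis and hypoxia lists, in part not shut off and in part above the ESC level. *Phlda2*, an imprinted inhibitor of placental growth, was at 7.07 in ESCs, 9.66 on d2, 10.41 on d4 and 9.36 with PRDM14. *Cdkn1c*, an imprinted inhibitor of cyclin-dependent kinases, was at 5.12, 7.59, 8.33 and 6.93. Both lie in the same imprinted domain of chromosome 7, and *Cdkn1c* was the one nearer to ESCs. *Peg3*, above the ESC level, and *Plagl1*, not restored, are other imprinted genes and had differences of -1.36 and 2.51, and over the 31 measured imprinted genes 5 were lower (16.1%, against 2.87%), 3 were higher (9.68%, against 2.27%) and the median was -0.04. *Gadd45a*, a damage response gene, was at 6.41, 8.37, 8.06 and 7.66. Of 24 measured p53 targets, 7 were lower in ESCs (29.2%, against 2.87%) and 0 were higher, with a median of -0.33, led by *Perp* at -2.17 and *Zmat3* at -1.41. Of these 7, 3 were not shut off and 4, *Perp* among them, were above the ESC level. *Cdkn1a*, the cell cycle inhibitor among these targets, was within 1.5-fold at -0.33 by its brightest probe set, while its other probe set was lower in ESCs at -0.76. Of 31 measured glycolysis and hypoxia genes, 5 were lower in ESCs (16.1%, against 2.87%), 2 were higher (6.45%, against 2.27%) and 24 were within 1.5-fold. Those lower included *Bnip3* at -1.97, the triose phosphate isomerase gene *Tpi1* at -1.26, *Ndrg1* at -1.19 and the glucose transporter gene *Slc2a1* at -0.98. Of 33 respiratory chain genes, 0 were lower in ESCs and 1, *Cox7a1* at 0.68, was higher (3.03%, against 2.27%). Of 18 fatty acid synthesis genes, 1 was lower (5.56%, against 2.87%) and 0 were higher. Of 29 measured ATF4 and amino acid genes, 3 were higher (10.3%, against 2.27%) and 3 were lower (10.3%, against 2.87%), with a median of 0.04.

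Genes of the 2-cell-like state, which a small share of cells in ESC cultures enters at any time, gave the largest list difference. Of 13 measured genes of a list of 30, 8 were lower in ESCs (61.5%, against 2.87% of all genes) and 1, *Calcoco2*, was higher, and the median was -1.80. Of the 8 lower genes, 6 were in the class above the ESC level and 2 in the class not shut off. *Zscan4a*, of a zinc finger family of the 2-cell embryo, was at 7.90 in ESCs, 9.06 on d2, 10.79 on d4 and 11.25 with PRDM14. *Tcstv1*, a 2-cell gene, was at 4.99, 5.54, 6.61 and 7.93, *Usp17la*, a deubiquitinase gene, at 7.92, 7.92, 9.63 and 10.25, and *Gm5039* at 6.18, 6.57, 8.39 and 9.58. *Arg2*, mitochondrial arginase, was at 4.20, 4.86, 6.53 and 7.20. In these 5 genes the order was ESCs, EpiLCs (d2), EpiLCs (d4), EpiLCs + PRDM14, apart from the equal *Usp17la* levels in ESCs and EpiLCs (d2), and EpiLCs (d4) were above EpiLCs (d2) by more than 1.5-fold in each. Median levels over the 13 genes were 5.52, 5.68, 6.61 and 7.20. More cells in that state and more RNA per cell cannot be told apart in these bulk samples, and the probe sets may not separate members of the multicopy families. *Gm20767*, *BC080696* and *AF067061*, which belong to no list, were at 7.05, 4.64 and 8.41 in ESCs, 8.47, 5.98 and 9.69 on d2, 9.94, 8.49 and 11.06 on d4 and 10.76, 8.34 and 11.74 with PRDM14.

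Genes above the ESC level had a median of 6.24 in ESCs, 6.15 on d2, 6.82 on d4 and 7.33 with PRDM14. For 173 of the 184 genes, ESCs and EpiLCs (d2) lay within 1.5-fold of each other, and for the other 11 ESCs were higher than EpiLCs (d2). With EpiLCs (d4) as the EpiLC level, 70 genes were in the class. Genes not shut off are left out of it, and their number was 171 with EpiLCs (d2) and 316 with EpiLCs (d4). The class sizes therefore do not tell whether fewer genes stood past both ESCs and EpiLCs (d4).

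Early germ cell genes were in this class and in the class not shut off. Of 19 measured genes of a list of 22, 6 were lower in ESCs (31.6%, against 2.87% of all genes) and 3 were higher (15.8%, against 2.27%), with a median of -0.21. Of the 6 lower genes, 5 were in the class above the ESC level. *Dppa3* fell in the class not shut off because ESCs held it below EpiLCs (d2), but with PRDM14 it was higher than in both. *Dppa3*, also known as *Stella*, a maternal factor of primordial germ cells and naive cells that limits DNA methylation, was at 6.49 in ESCs, 7.26 on d2, 7.61 on d4 and 9.18 with PRDM14. *Tfap2c*, the AP-2 gamma factor that acts with PRDM14 and BLIMP1 in germ cell specification, was at 5.78, 5.33, 6.59 and 7.32. *Ifitm3*, a membrane protein known as fragilis, was at 8.92, 8.10, 8.67 and 9.88. *Dppa3*, *Tfap2c* and *Ifitm3* were higher with PRDM14 than in each other scramble or ESC array. *Rhox6* and *Rhox9*, X-linked homeobox genes, were at 5.31 and 4.94 in ESCs, 5.18 and 4.96 on d2, 6.67 and 6.15 in EpiLCs (d4) and 6.57 and 6.05 in EpiLCs + PRDM14, so they had the level of EpiLCs (d4). *Prdm1*, which encodes BLIMP1, was within 1.5-fold, at 4.59 in ESCs and 4.89 in EpiLCs + PRDM14, and *Dnd1* was at 6.35 and 6.40. *Kit*, the receptor for stem cell factor, and *Rhox5*, also of this list, were higher in ESCs by 1.15 and 0.88. The remaining gene higher in ESCs was *Prdm14* itself, at 2.01 by the probe set described above.

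The genes with the largest differences in this class included the 2-cell-like genes *Gm5039* at -3.40, *Tcstv1* at -2.94 and *Usp17la* at -2.34, described above. Others were of other kinds. *Plac8*, a gene of placenta and immune cells, was at 6.83 in ESCs, 7.16 on d2, 9.66 on d4 and 9.99 with PRDM14. *Lgals1*, which encodes galectin-1, was at 7.75, 8.14, 10.62 and 10.31, and *Nrk*, an X-linked kinase of the placenta, at 5.14, 5.41, 8.42 and 7.25. In *Plac8* and *Lgals1* both later EpiLC arrays were within 1.5-fold of each other, and *Nrk* was higher without PRDM14. *Slc6a15*, a transporter of neutral amino acids, was at 5.23, 4.76, 5.39 and 7.75, so it was high on the array with PRDM14 and not on that of EpiLCs (d4). *Anxa2*, an annexin of the membrane cytoskeleton, was at 7.26, 7.53, 8.10 and 9.18, and *Perp*, a desmosomal protein, at 5.61, 5.42, 7.08 and 7.78. Of 31 measured actin cytoskeleton genes 5 were lower in ESCs (16.1%, against 2.87%) and 1, *Vim*, was higher, with a median of -0.11. Of 23 measured trophoblast genes 5 were lower in ESCs (21.7%, against 2.87%) and 0 were higher. These 5 included *Plac8*, *Tfap2c* and *Rhox6*, which other lists or sections also hold, while *Cdx2*, *Eomes*, *Elf5* and *Gata3*, which define the lineage, lay within 0.14 of ESCs.

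**Figure D4:**
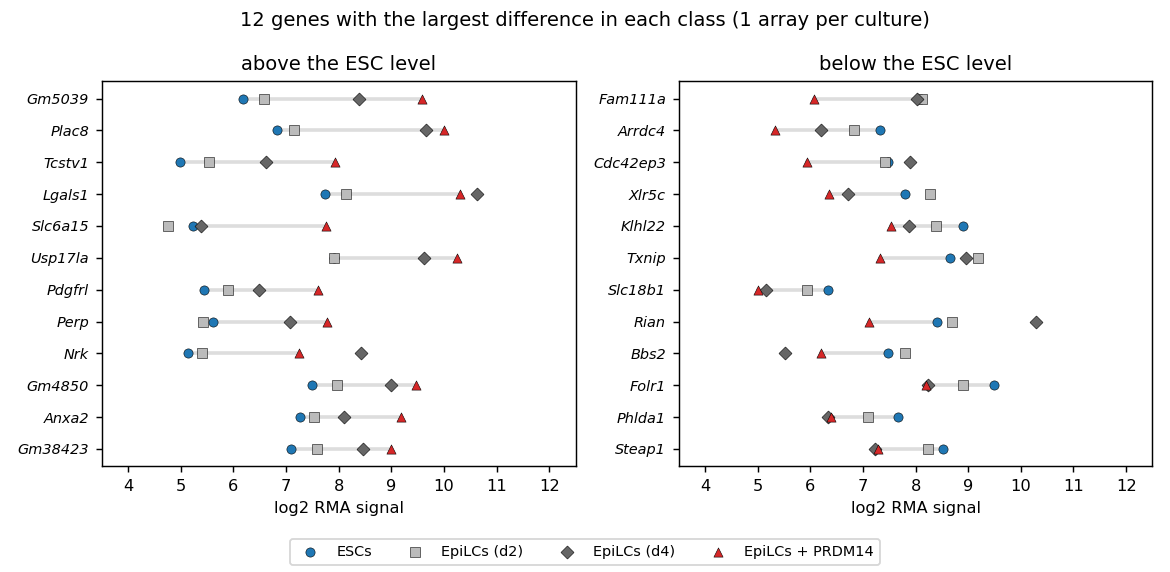
Log2 RMA signal (horizontal axis) of the 12 genes with the largest difference among those above (left) and below (right) the ESC level, 1 symbol per array. On the left, EpiLCs (d4) lie between or beyond ESCs and EpiLCs + PRDM14 in each gene, near the latter in *Lgals1* (10.62 against 10.31) and near ESCs in *Slc6a15* (5.39 against 5.23), and on the right the *Fam111a* levels of ESCs and both EpiLC arrays without PRDM14 lie at 8.03 to 8.12 and that with PRDM14 at 6.08.

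Genes below the ESC level had a median of 8.08 in ESCs, 8.21 on d2, 7.80 on d4 and 7.11 with PRDM14. For 75 of the 81, ESCs and EpiLCs (d2) were within 1.5-fold, and for 6 ESCs were lower. With EpiLCs (d4) as the EpiLC level, the class held 51 genes.

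The DNA methylation machinery divided between classes. Of 14 measured genes of a list of 15, 3 were higher in ESCs (21.4%, against 2.27% of all genes) and 2 were lower (14.3%, against 2.87%), with a median of -0.01. *Dnmt3b*, a de novo methyltransferase, was at 10.34 in ESCs, 11.47 on d2, 11.70 on d4 and 9.37 with PRDM14, and both of its probe sets were higher in ESCs. *Dnmt3l*, the catalytically inactive cofactor of both de novo enzymes, was at 10.13, 10.46, 10.11 and 9.44. *Uhrf1*, which brings the maintenance enzyme to hemimethylated DNA, was at 10.62, 10.55, 10.21 and 9.89. In these 3 genes EpiLCs + PRDM14 had the lowest level among the scramble and ESC arrays, within 1.5-fold of EpiLCs (d4) for *Uhrf1*. *Dnmt3a*, the other de novo enzyme, was at 8.18, 9.75, 9.35 and 8.96, so it stayed 0.78 above ESCs, with 2 of its 5 probe sets past the threshold. *Dnmt1*, the maintenance enzyme, differed by 0.01. *Tet2*, a 5-methylcytosine dioxygenase, was at 8.93, 8.54, 8.35 and 8.51, within 1.5-fold.

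The other genes below the ESC level included genes of DNA replication, FGF feedback and glucose responses. *Fam111a*, a protease at replication forks, was at 8.11 in ESCs, 8.12 on d2, 8.03 on d4 and 6.08 with PRDM14, so the array with PRDM14 stood apart from the others. *Txnip* and *Arrdc4*, alpha-arrestins that restrain glucose uptake, were at 8.65 and 7.32 in ESCs, 9.19 and 6.83 on d2, 8.97 and 6.21 in EpiLCs (d4) and 7.33 and 5.34 in EpiLCs + PRDM14. *Rian*, a maternally expressed non-coding RNA of the *Dlk1-Gtl2* imprinted region, was at 8.41, 8.69, 10.28 and 7.11, the widest gap between EpiLCs (d4) and EpiLCs + PRDM14 in this class. *Spry2*, a feedback inhibitor of FGF signalling, and *Etv1*, an ETS factor downstream of ERK, were 1.12 and 1.09 below ESCs. *Gja1*, which encodes connexin 43, was at 9.77, 11.04, 11.28 and 8.69. Of 38 measured genes of G1-S and replication, 5 were higher in ESCs (13.2%, against 2.27%) and 0 were lower, with a median of 0.24, led by *E2f3* at 0.78 and *Ccne2*, a cyclin of S phase entry, at 0.73. Of 28 genes of G2-M, 1, the mitotic kinase gene *Aurka*, was higher at 0.68 (3.57%, against 2.27%), with a median of 0.17.

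**Figure D5:**
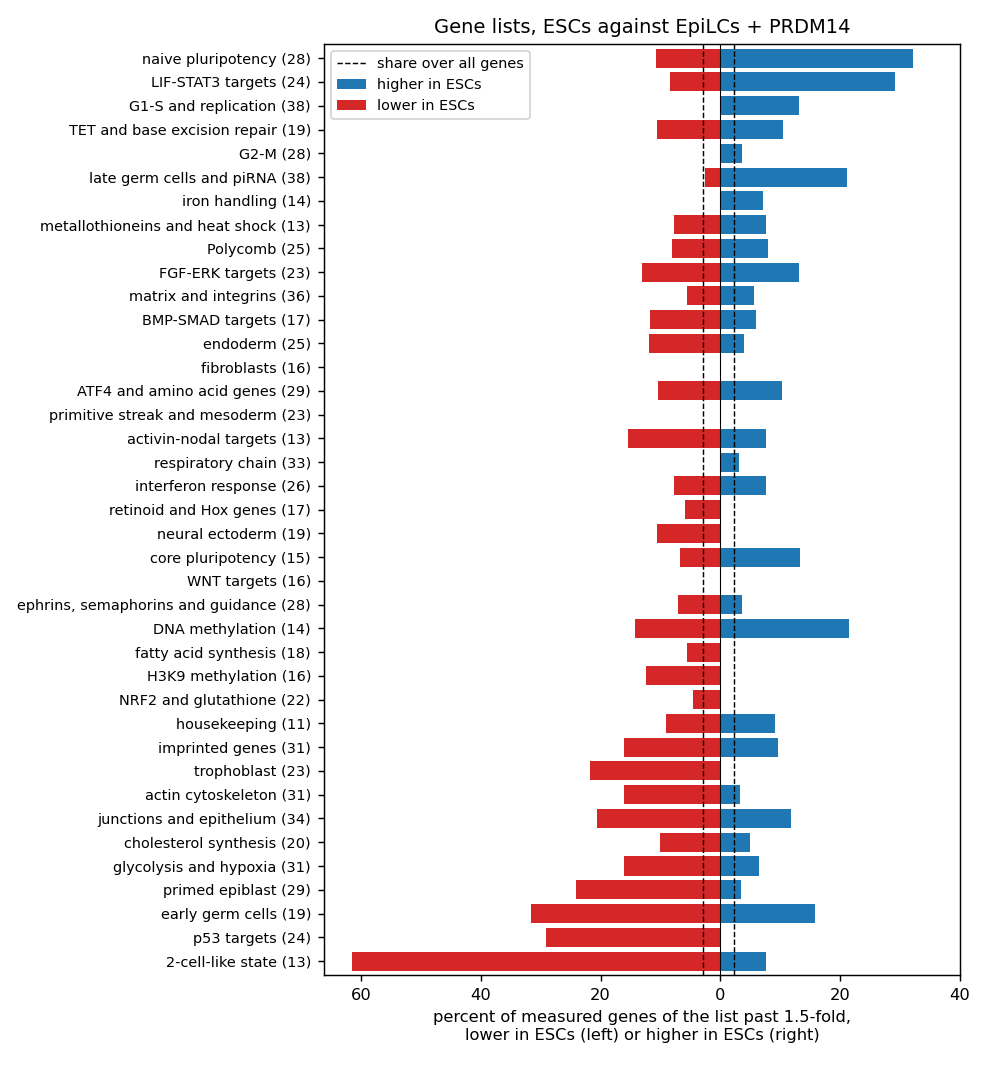
Percent of the measured genes of each list (numbers in parentheses) past 1.5-fold between ESCs and EpiLCs + PRDM14, lower in ESCs to the left and higher in ESCs to the right, ordered by median difference. Dashed lines mark the share of all genes, 2.87% and 2.27%. The 2-cell-like state (61.5% lower), early germ cells (31.6% lower), p53 targets (29.2% lower), naive pluripotency (32.1% higher) and LIF-STAT3 targets (29.2% higher) reach farthest from these lines. Some genes are in several lists.

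Of 15 measured core pluripotency genes of a list of 18, 2 were higher in ESCs (13.3%, against 2.27%), *Dnmt3l* and the zinc finger gene *Zfp281* at 0.61, and 1, *Epcam*, was lower (6.67%, against 2.87%), with a median of -0.01. *Pou5f1*, which encodes OCT3/4, differed by -0.04 and *Sox2* by -0.32. Of 20 measured cholesterol synthesis genes of a list of 28, 2 were lower in ESCs (10%, against 2.87%) and 1 was higher (5%, against 2.27%), with a median of -0.15. These were *Lss*, lanosterol synthase, with 4.10 in ESCs, 5.79 on d2, 6.25 on d4 and 5.33 with PRDM14, *Mvd* at -0.70 and *Ebp* at 0.70. None of 23 primitive streak and mesoderm genes and none of 16 fibroblast genes was past 1.5-fold. With 2.27% of all genes higher and 2.87% lower, lists of these sizes would hold few such genes. Their median levels were also low, at 4.73 in ESCs and 4.64 with PRDM14 for the first list and 4.57 in both for the second.

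The pair labelled *Tet1*/*Tet2* KD shared no array with the 4 classes and was used to see whether the distance from EpiLCs (d2) recurred there. In that pair 364 of all genes (2.13%) were higher with PRDM14 than on d2 and 430 (2.52%) were lower. Of the 184 genes above the ESC level, 99 (53.8%) were higher and 1 was lower. Of the 81 genes below the ESC level, 53 (65.4%) were lower and 0 were higher. Of the 209 genes not restored, 19 were higher (9.09%) and 30 lower (14.4%), and of the 171 not shut off 31 were higher (18.1%) and 42 lower (24.6%). Most genes of both classes beyond the ESC level were thus called in the same direction in a pair of arrays that did not choose them. EpiLCs + PRDM14 differ from EpiLCs (d2) in medium and time in this pair too.

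The probe set of *Tet2*, a gene named by the KD label, was at 8.49 on d2 and 7.76 with PRDM14 in this pair, where the scramble pair had 8.54 and 8.51. The arrays labelled KD thus stood within 1.5-fold of their scramble counterpart on d2 and more than 1.5-fold below it with PRDM14. Both comparisons cross the difference in median signal given below, so they do not measure the knockdown. The study analysed its efficiency by qRT-PCR and western blotting. *Tet1* was not analysed here. The pair labelled KD held these levels of other genes. *Tfap2c* was at 4.92 on d2 and 7.82 with PRDM14, *Dppa3* at 6.94 and 9.01, and *Perp* at 6.37 and 8.49. *Dnmt3b* was at 10.91 and 9.66, *Uhrf1* at 10.49 and 9.45, and *Fam111a* at 7.84 and 6.33. *Klf4*, not restored in the scramble array, was at 6.10 and 8.85, a difference of 2.75, where the scramble pair had 2.00. *Slc6a15* was at 4.18 and 4.71, within 1.5-fold, and *Dazl* at 8.63 and 7.57, lower with PRDM14. The arrays labelled KD have a lower median signal, 5.07 against 5.28 to 5.29, so apart from *Tet2* their levels were compared only with each other.

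Many classed genes had further probe sets. Of the 87 genes not restored that have several, all probe sets were past the threshold in 24 and 2 or more in 38, and of the 90 not shut off these were 22 and 41. Of the 82 genes above the ESC level with several probe sets these were 17 and 31, and of the 42 below it 11 and 19. *Klf4* and *Plagl1* each had 1 of 2 probe sets past the threshold and *Tbx3* 2 of 3. A level under 6 in both arrays was found in 17, 16, 36 and 4 genes of the 4 classes. *Socs3* is among those of the class not restored and *Pou3f1* among those of the class not shut off.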

How the data were processed

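RNA of 6 cultures, 1 array each, was labelled (GeneChip 3' IVT Express Kit) and read on GeneAtlas array strips (Affymetrix, mouse). Normalization by the authors was RMA at its defaults, and the deposited signals are on the log2 scale. Affymetrix Expression Console is named in the submitters' processing notes, with a version not given in the sources used here. Of 45141 probe sets, 104 controls were left out, and platform annotation gave 1 symbol for 28898, several for 551 and none for 15588. Each gene was represented by its brightest probe set, taking the mean of the 6 arrays. Differences of log2 values were called at 1.5-fold, the threshold that the study prints, and no signal filter was applied. Array medians were 5.28 to 5.29, and 5.07 for the arrays labelled KD. The sources used here give no reason for this gap, and its cause was not tested.

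The members and the 39 gene lists (926 symbols, 809 measured) were chosen with earlier results of these data known. Named genes were the 12 largest differences in each direction and class, the 4 largest of each list, all members of the naive, core and primed pluripotency, DNA methylation, LIF-STAT3, early germ cell and cholesterol lists, *Prdm14* and *Tet2*, of which the text gives a part. *Gtsf1*, *Stag3*, *Hormad1*, *Syce1*, *Tex15*, *Calcoco2*, the genes at the threshold and the cell type markers fall outside that rule. Lists are described by counts and medians beside those of all genes. Alternatives were a 2-fold threshold, a limit on dim genes, 2 further normalizations, 4 other rules from probe sets to genes and EpiLCs (d4) as the EpiLC level. The scripts were tested on simulated data. Promoters were taken from RefSeq (GRCm38.p6). Python 3.11.15, pandas 2.3.3, numpy 2.4.6 and matplotlib 3.10.9 were used.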

Additional observations from a re-analysis of the deposited data

Results flagged for a closer look

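Among the genes described by name, 3 had opposite PRDM14 differences, EpiLCs + PRDM14 minus EpiLCs (d2), past 1.5-fold in the scramble pair and the pair labelled KD. With 1 array a condition the difference between the pairs was not tested. *Eras* was 0.62 higher with PRDM14 in the scramble pair (8.74 to 9.36) and had a difference of -0.637 in the pair labelled KD (8.94 to 8.30). *Lifr* had differences of 0.65 (7.66 to 8.32) and -0.7684 (8.18 to 7.41). *Cdkn1c* had differences of -0.66 (7.59 to 6.93) and 0.9104 (6.34 to 7.25). Over the genes of all 4 classes, 7 had such opposite differences, and the other 4, named after their values were seen, were *C730049O14Rik*, *Cnpy1*, *Dpp4* and *Mical1*.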

How the results depend on the processing

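At a 2-fold threshold, 132 genes were higher and 183 lower in ESCs than in EpiLCs + PRDM14, with 72 not restored, 61 not shut off, 79 above and 11 below the ESC level. Counting a gene only where all its probe sets fell in the class gave 257 higher, 284 lower, 94 not shut off, 117 above and 49 below. With EpiLCs (d4) as the EpiLC level, 316 were not shut off, 70 above and 51 below. The other counts of these results stayed within 1.5 times the main count under the limit on dim genes, both normalizations and the other rules for probe sets, and no direction reversed. Of 281 named genes, 19 moved with the mean of all probe sets and 262 did not, and 2 of 39 list medians moved. No paired analysis was possible because each condition had 1 array and the labels give no shared replicate numbers, and for the same reason no array could be left out. Dim genes and probe sets that disagree limit the smaller differences. EpiLCs + PRDM14 and ESCs differ in culture as well as in PRDM14, and 1 array a condition gives no measure of the spread between cultures.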
